A study of Mus musculus with 6 samples.

Results

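The 10 genes described here carry the transcriptional control of mitochondrial mass and the expression of mitochondrial DNA (mtDNA). They were chosen by symbol as textbook regulators, with earlier results of these data known. All 10 had a row in the tables of 55076 rows that were deposited for each mouse. The samples were whole anterior prostates (AP) of male mice aged 20 weeks, 3 OEx and 3 Ctrl, with 1 RNA-seq library per mouse. OEx mice carried Pbsn-Cre and 1 Rosa26 N1ICD allele, which expresses the intracellular domain of Notch1 (N1ICD) once Cre has removed a stop. Ctrl mice carried the Rosa26 N1ICD allele without Cre, and the sample labels call them wild type. The probasin (Pbsn) promoter drives Cre in prostatic epithelium, so N1ICD is expressed in 1 compartment of a tissue that was sequenced whole. The comparison asks which of these regulators differed in mRNA level once Notch1 signaling was over-activated.

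Mitochondria are built from proteins of both genomes. The coactivators PGC-1alpha (Ppargc1a), PGC-1beta (Ppargc1b) and PRC (Pprc1) do not bind DNA themselves and are recruited by nuclear factors such as NRF1, ERRalpha (Esrra) and GABPA (NRF2alpha). These factors bind promoters of respiratory chain genes and of the mtDNA machinery. In the organelle, TFAM packages mtDNA and, with TFB2M and the RNA polymerase POLRMT, starts transcription, while POLG is the catalytic subunit of the replicative DNA polymerase.

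The promoters of several members hold the short words that NRF1 and ETS factors such as GABPA bind. RefSeq promoters of GRCm38.p6 (250 bases before to 50 after the start) were found for 9 of the 10 members, 10 windows in all, and both strands were searched. The NRF1 word GCGCATGC was in the windows of Esrra, Polrmt and Tfb2m, and in 2.71% of 32851 promoters. The ETS word CCGGAAG was in those of Gabpa, Tfam, Polg and Polrmt, and in 8.86% of promoters. The word GTGGGAA of RBPJ, the DNA-binding partner of N1ICD, was in those of Tfam and Pprc1, and in 6.38% of promoters. The ERR word TCAAGGTCA (0.423% of promoters) and the CRE word TGACGTCA (1.79%) were in none of the 10 windows. None of these matches overlapped another, and a match is a word in the reference, not a measured site. The windows of Esrra and Polrmt are shown as the member that fell and the one that holds both words, with the words in capitals and each sequence read 5′ to 3′ on the strand of the gene. The Esrra stretch is chr19:6921814-6922058 and the Polrmt stretch is chr10:79746582-79746831, both on the minus strand and upstream of the annotated exons.
Esrra: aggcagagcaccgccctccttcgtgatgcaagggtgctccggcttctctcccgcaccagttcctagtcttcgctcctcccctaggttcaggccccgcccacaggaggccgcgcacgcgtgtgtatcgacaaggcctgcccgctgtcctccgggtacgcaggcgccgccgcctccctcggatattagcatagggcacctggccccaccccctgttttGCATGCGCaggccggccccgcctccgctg
Polrmt: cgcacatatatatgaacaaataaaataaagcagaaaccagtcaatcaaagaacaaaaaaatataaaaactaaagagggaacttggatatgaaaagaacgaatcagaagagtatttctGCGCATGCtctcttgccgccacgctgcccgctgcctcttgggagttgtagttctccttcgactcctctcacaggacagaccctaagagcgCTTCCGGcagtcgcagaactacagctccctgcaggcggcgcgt
The sites of the 4 members that were higher in OEx mice are short enough to set side by side. They lie at chr16:84835021-84835047 on the plus strand for Gabpa, and on the minus strand at chr10:71238075-71238101 for Tfam, chr7:79466295-79466321 for Polg and chr1:179546247-179546273 for Tfb2m. The capitals mark the ETS word in Gabpa, Tfam and Polg and the NRF1 word in Tfb2m. The Tfam window also holds the RBPJ word at -33 to -27 and at 15 to 21 from the start. The first of these is cut by the end of the stretch shown and is left in lower case. All 4 are inside annotated exons, and the Tfb2m word starts 13 bases into the transcript.
Gabpa: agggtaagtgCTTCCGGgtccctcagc
Tfam: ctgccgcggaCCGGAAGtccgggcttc
Polg: aggacctcacCCGGAAGtccctctgca
Tfb2m: taggtcgttcGCATGCGCcattcgtaa

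Values are FPKM, fragments per kilobase of gene scaled to a library size, so that levels can be compared between genes. Reads behind them were recovered from the exon lengths, and ran from 14762190 to 18650970 per mouse on annotated genes. The difference between OEx and Ctrl mice was fitted with limma to log2(FPKM + 1), a scale that understates the change of low genes, over 12833 rows that averaged at least 1 FPKM. A gene passed with a false discovery rate (FDR, Benjamini-Hochberg over all tested rows) under 0.05, and was called with, in addition, a fold change over 2. Notch1 was at 41.9, 47.6 and 78.9 FPKM in OEx mice and 5.18, 5.55 and 3.34 FPKM in Ctrl mice, which fits the labels of all 6 libraries but does not separate the transgene from the endogenous gene. In each group replicates 1 and 2 resembled each other more than replicate 3, with a spread above counting noise. Ctrl replicate 3 held 16128 FPKM of 8 seminal vesicle genes, against at most 4.36 FPKM in any other mouse, and OEx replicate 3 held 20.7 FPKM of 4 fibroblast genes, against 199 and 204 FPKM in the other OEx mice. The labels do not say how mice were assigned to litters or preparations, so the p-values measure the spread between these 6 samples.

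The regulators did not move as 1 block. Esrra fell to less than its level in any Ctrl mouse, Gabpa, Tfb2m, Tfam and Polg rose, and Polrmt, Nrf1 and Pprc1 did not pass the test. Of the 8 members that could be tested, 4 passed higher and 1 lower, while in the same fit 67.2% of all tested genes passed, 30.7% higher and 36.5% lower. With the fold criterion 1 member was called higher and 1 lower, against 12.9% and 15.7% of all tested genes, 28.6% together. These shares of all genes are large, so a change in a single member does not set it apart from the rest of the transcriptome. The median log2 fold change of the 8 was 0.39, against -0.08 over all tested genes. The groups did not overlap for 8 of the 10 members, and for 7 of the 8 tested, while 72.4% of all tested genes did not overlap. The exact permutation test (two-sided) gave p = 0.1 for each of those 8 members, the smallest value that 3 against 3 mice allow.

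**Figure D1:**
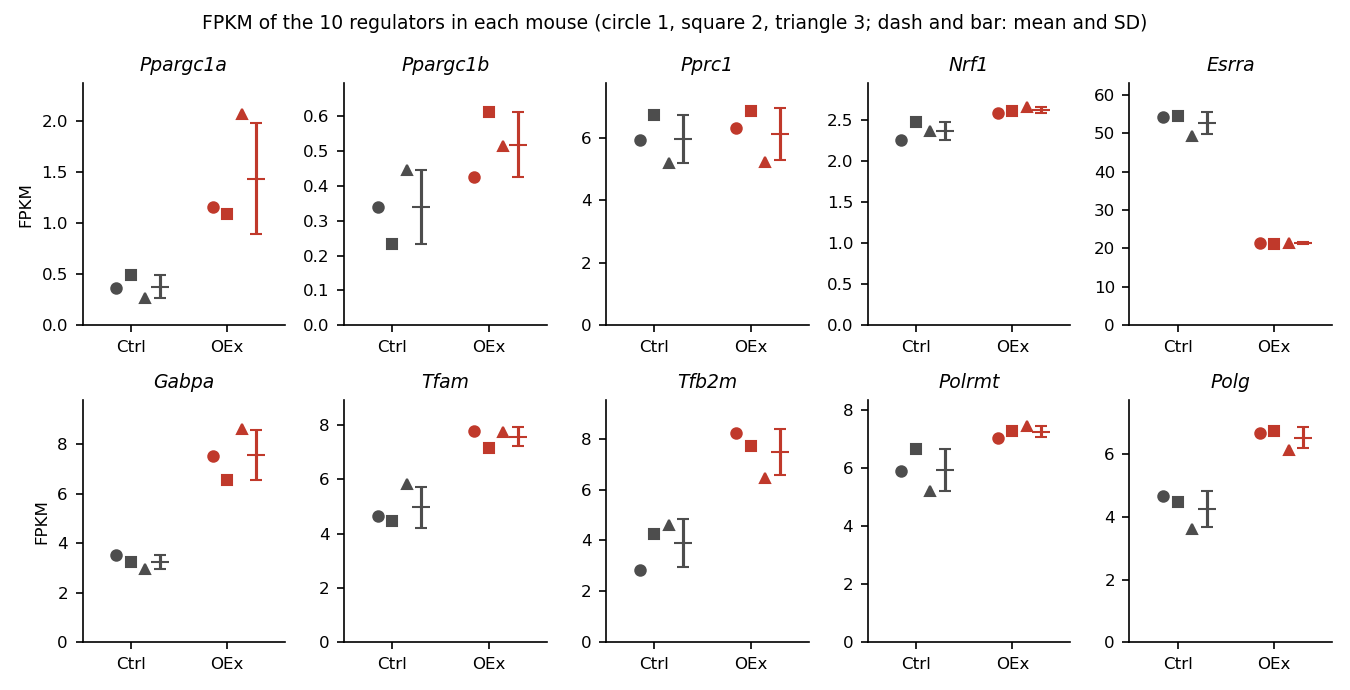
FPKM of each of the 10 regulators (vertical axis, from 0) in the 3 Ctrl and 3 OEx mice. Points are mice, and the dash and bar are the mean and SD. Esrra lay at 21.2 to 21.5 FPKM in OEx mice and 49.3 to 54.4 FPKM in Ctrl mice, while Pprc1 overlapped between the groups.

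Of the coactivators, Ppargc1a and Ppargc1b had the lowest levels of all members. Ppargc1a, the cold- and exercise-inducible coactivator of muscle and brown fat, was at 1.16, 1.09 and 2.07 FPKM in OEx mice and 0.364, 0.492 and 0.270 FPKM in Ctrl mice. Every OEx mouse was above every Ctrl mouse, and OEx replicate 3 was the highest. Behind these values stood 152, 164 and 246 reads in OEx mice against 30, 42 and 27 in Ctrl mice, and the ratio of the mean FPKM values was 3.83. The mean over all mice was under 1 FPKM, so Ppargc1a was not in the main test. In the fit without that filter its log2 fold change was 0.81 (standard error, SE, 0.185, FDR 0.0166 by limma), where 20.6% of all rows passed higher. On the recovered reads, a fit with limma-voom gave 1.89 (SE 0.415, FDR 0.00558), where 31.9% of genes passed higher. The summed level of 5 markers of skeletal muscle, a tissue rich in this coactivator, was 24.6 to 31.7 FPKM in OEx mice and 186 to 429 FPKM in Ctrl mice. Acta1 made up nearly all of the sum, and it and Ckm, the 2 that were tested, fell. Myh2 was at most 0.054 FPKM in any mouse and higher in each OEx mouse than in any Ctrl mouse, Tnnt3 was at most 0.151 FPKM with overlapping groups, and Myh4 was at 0 in every mouse. Ucp1, the defining gene of brown fat, was at 0 in 4 of the mice and at most 0.203 FPKM.

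Ppargc1b, the constitutive relative of Ppargc1a, was at 0.427, 0.614 and 0.514 FPKM in OEx mice and 0.341, 0.232 and 0.445 FPKM in Ctrl mice. The groups overlapped, since Ctrl replicate 3 was above OEx replicate 1. These are 12 to 56 reads per mouse, and neither the fit without a filter (log2 fold change 0.18, FDR 0.196) nor limma-voom (0.61, 95% interval -0.21 to 1.43, FDR 0.164) passed. Pprc1, the member of the family that serum induces in growing cells, was at 6.33, 6.85 and 5.23 FPKM in OEx mice and 5.93, 6.75 and 5.21 FPKM in Ctrl mice. The groups overlapped throughout, with the lowest value of each in replicate 3. The log2 fold change of Pprc1 was 0.03 (95% interval -0.28 to 0.34, limma FDR 0.829).

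Among the DNA-binding factors, Esrra and Gabpa moved in opposite directions. Esrra, an orphan nuclear receptor that partners PGC-1alpha at genes of oxidative phosphorylation, was at 21.5, 21.2 and 21.4 FPKM in OEx mice and 54.3, 54.4 and 49.3 FPKM in Ctrl mice. The OEx mice had an SD of 0.154 FPKM and the Ctrl mice of 2.93 FPKM, and the gap between the groups was far wider than either. Its log2 fold change was -1.26 (SE 0.077, FDR 4.25e-05 by limma), a level 2.46 times lower. The 3′ end of Esrra (chr19:6910977-6921813, minus strand, GRCm38) overlaps Trmt112, the activator subunit of several methyltransferases, which was at 33.9, 33.0 and 32.4 FPKM in OEx mice and 64.8, 65.5 and 69.9 FPKM in Ctrl mice. Both genes of the pair were lower in OEx mice, Trmt112 by 0.99 on the log2 scale. Without strand in the counting, reads in the shared stretch cannot be assigned to 1 of them.

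Gabpa, the ETS-domain subunit of the GA-binding protein, was at 7.52, 6.57 and 8.59 FPKM in OEx mice and 3.53, 3.26 and 2.95 FPKM in Ctrl mice. The lowest OEx mouse was above the highest Ctrl mouse, and the recovered reads were 853, 854 and 882 against 251, 240 and 255. The log2 fold change of Gabpa was 1.01 (SE 0.117, FDR 3.92e-04 by limma). This is at the edge of the fold criterion, and without OEx replicate 3 it was 0.92 and without Ctrl replicate 3 it was 0.96. The start of Gabpa (chr16:84834925-84863779, plus strand) overlaps that of Atp5j, a subunit gene of ATP synthase on the other strand, which was at 27.7, 25.0 and 29.0 FPKM in OEx mice and 42.0, 43.2 and 50.2 FPKM in Ctrl mice. The 2 genes of this shared start moved in opposite directions, Atp5j with a log2 fold change of -0.71 (SE 0.103, FDR 0.00102 by limma). Trmt112 and Atp5j were chosen as overlapping neighbours after their values were seen. Nrf1, which binds promoters of respiratory and mtDNA genes, was at 2.59, 2.62 and 2.67 FPKM in OEx mice and 2.26, 2.48 and 2.37 FPKM in Ctrl mice. The OEx mice were above the Ctrl mice by less than the test could separate, with a log2 fold change of 0.10 (95% interval -0.11 to 0.32, limma FDR 0.335).

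Of the genes for the mtDNA machinery, 3 of 4 passed higher, where 30.7% of all tested genes did, and none was called. Tfb2m, the factor that melts the mtDNA promoter, was at 8.21, 7.72 and 6.46 FPKM in OEx mice and 2.85, 4.27 and 4.62 FPKM in Ctrl mice. The Ctrl mice were spread over a wide range, with replicate 1 lowest on 100 reads, and all were below the OEx mice. The log2 fold change of Tfb2m was 0.80 (SE 0.168, FDR 0.00532 by limma). Tfam, the packaging protein, was at 7.79, 7.17 and 7.75 FPKM in OEx mice and 4.65, 4.46 and 5.84 FPKM in Ctrl mice. Its log2 fold change was 0.53 (SE 0.112, FDR 0.00559 by limma), and with replicates 1 and 2 of each group averaged and counted once it was 0.48 with an FDR of 0.0653. Polg, the replicative polymerase, was at 6.68, 6.75 and 6.15 FPKM in OEx mice and 4.68, 4.47 and 3.61 FPKM in Ctrl mice. The groups were apart and replicate 3 was the lowest of each, with a log2 fold change of 0.52 (SE 0.109, FDR 0.00500 by limma). Polg (chr7:79446231-79466362, minus strand) overlaps Fanci, which was at 0.205 ± 0.003 (SD, n = 3) FPKM in OEx mice and 0.033 ± 0.022 (SD, n = 3) FPKM in Ctrl mice.

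Polrmt, the polymerase that TFAM and TFB2M recruit, was at 7.04, 7.26 and 7.45 FPKM in OEx mice and 5.89, 6.66 and 5.21 FPKM in Ctrl mice. All OEx mice were above all Ctrl mice, but the log2 fold change of 0.26 (95% interval 0.01 to 0.50) had a limma FDR of 0.0592 and did not pass. Fewer cells of a type and less RNA per cell cannot be told apart in these bulk samples, for any member.

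The order of the members by level differed between the groups. In Ctrl mice, Esrra at 52.7 ± 2.93 FPKM (SD, n = 3) was far above the rest, followed by Pprc1, Polrmt, Tfam, Polg, Tfb2m and Gabpa between 5.97 and 3.25 FPKM. Each of these 6 overlapped its neighbour in the order, and Nrf1 at 2.37 ± 0.108 FPKM stood below them. In OEx mice, Esrra was still first at 21.4 ± 0.154 FPKM. Tfam, Gabpa, Tfb2m and Polrmt followed between 7.57 and 7.25 FPKM, each overlapping its neighbour, and Polg at 6.53 ± 0.330 FPKM and Pprc1 at 6.14 ± 0.831 FPKM came next. Gabpa thus went from the seventh place in Ctrl mice to the third in OEx mice, without a test between neighbours. Nrf1, Ppargc1a and Ppargc1b were the lowest 3 in both groups, and in Ctrl mice the values of the last pair overlapped.

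Ratios within a mouse do not depend on how libraries are scaled to each other. The ratio of Esrra to Gabpa was 2.86, 3.23 and 2.49 in OEx mice and 15.4, 16.7 and 16.7 in Ctrl mice. Esrra relative to Tfam was 2.76, 2.96 and 2.76 in OEx mice and 11.7, 12.2 and 8.44 in Ctrl mice. Both ratios were lower in every OEx mouse than in any Ctrl mouse, and a ratio shows unequal change, not which of its genes changed. Tfb2m relative to its paralog Tfb1m, a methyltransferase of mitochondrial ribosomal RNA, was 4.44, 3.41 and 2.84 in OEx mice and 0.894, 1.25 and 2.39 in Ctrl mice. OEx replicate 3 and Ctrl replicate 3 came closest, without overlap. Gabpa relative to Atp5j was 0.272, 0.262 and 0.297 in OEx mice and 0.084, 0.075 and 0.059 in Ctrl mice. The exact permutation p was 0.1, the smallest possible, for these 4 ratios. For Esrra to Gabpa, Esrra to Tfam and Gabpa to Atp5j it had to be. The single genes of each pair were already apart between the groups, in opposite directions. Polg relative to Polg2, its accessory subunit, was 3.19, 3.33 and 2.72 in OEx mice and 2.90, 2.60 and 2.85 in Ctrl mice. The groups overlapped for this last ratio (exact permutation p = 0.3). The partner genes in these ratios were chosen after their values were seen.

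**Figure D2:**
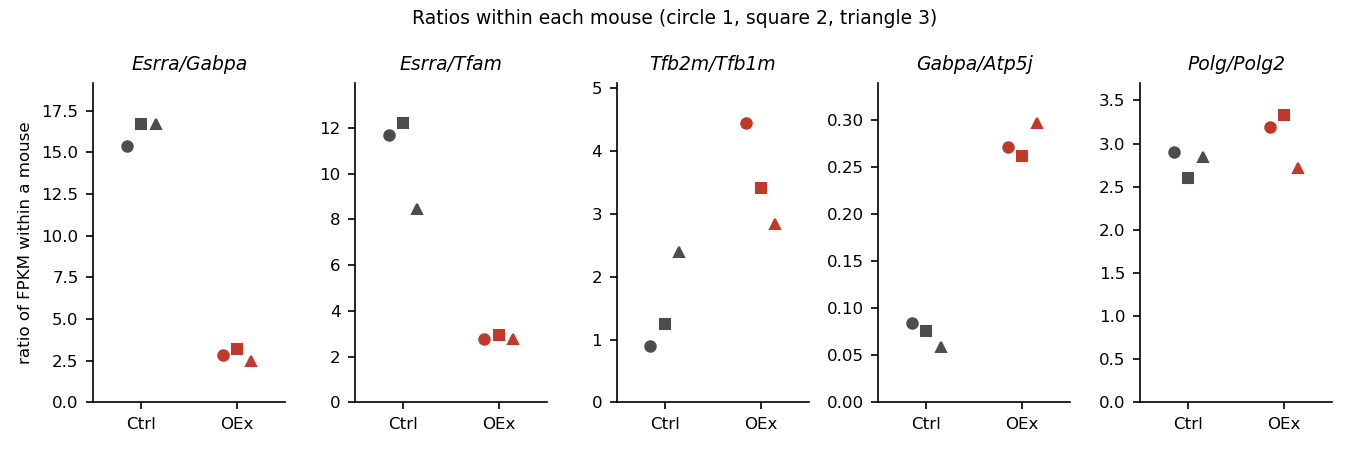
Ratio of the FPKM of 2 genes within a mouse (vertical axes, from 0) for 5 pairs of genes. Points are the 3 Ctrl and 3 OEx mice. The ratio of Esrra to Gabpa lay at 2.49 to 3.23 in OEx mice and 15.4 to 16.7 in Ctrl mice, and that of Polg to Polg2 overlapped.

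The 3 tested genes whose pattern over the 6 mice was nearest to that of Esrra were Nelfe, Farsb and Sdhc. The measure was the root mean square difference of log2(FPKM + 1) values centred on each gene, which was 0.039, 0.040 and 0.044. Nelfe, a subunit of the negative elongation factor, had a log2 fold change of -1.25, Farsb, a phenylalanyl-tRNA synthetase subunit, -1.26, and Sdhc, a membrane subunit of complex II, -1.28. All 3 were lower in every OEx mouse than in any Ctrl mouse. That gap and the fold changes follow from how the 3 were picked, and nearness to Esrra in these mice is a description of the pattern.

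For each list that follows, the share of all tested genes that passed was 30.7% higher and 36.5% lower, and 12.9% were called higher and 15.7% lower. No list was tested against another or against all genes. Of 18 other regulators of the coactivator axis, 15 were tested, 11 passed higher and 1 lower, and 6 were called higher, with a median log2 fold change of 0.77. Sirt1, the deacetylase that acts on PGC-1alpha, was at 5.61 ± 0.542 (SD, n = 3) FPKM in OEx mice and 1.63 ± 0.278 FPKM in Ctrl mice, for a log2 fold change of 1.33. Nrip1 (RIP140), a corepressor that opposes PGC-1alpha at its targets, rose by 1.33 as well. Creb1, which activates the Ppargc1a promoter in many tissues, rose by 1.18, and Gabpb2, a GABPA partner subunit, by 1.16. Ncor1, another corepressor, rose by 0.82. Prkaa2, a catalytic subunit of AMP-activated kinase, rose by 1.08, Perm1, a muscle partner of PGC-1alpha, by 1.01, and Gabpb1, the other partner subunit of GABPA, by 0.45. Ncor1, Prkaa2, Perm1 and Gabpb1 were named after their values were seen. Ppard, a nuclear receptor of fatty acid oxidation, was the gene that passed lower, at -0.55.

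Of 16 replication and maintenance genes of mtDNA, 15 were tested, 3 passed higher and 1 lower on the deposited scale, and the median log2 fold change was 0.10. Rrm2b, a ribonucleotide reductase subunit that feeds mtDNA synthesis in resting cells, was at 3.45 ± 0.481 (SD, n = 3) FPKM in OEx mice and 0.969 ± 0.219 FPKM in Ctrl mice, for a log2 fold change of 1.18. Primpol, a primase and polymerase, rose by 0.77, and Ssbp1, the mitochondrial single-strand binding protein, by 0.63. Mpv17, an inner membrane protein needed for mtDNA maintenance, fell by 0.68. Twnk, the helicase at the fork, differed by -0.05 and did not pass (limma FDR 0.590).

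Genes of mitochondrial transcription and RNA processing were divided on the deposited scale. With equal totals none passed lower, where 1464 of all 12833 tested genes did. Of 27, 22 were tested, 6 passed higher and 9 lower, and the median of the log2 fold changes was -0.13. Pnpt1, a nuclease of the mitochondrial degradosome, was at 7.33, 7.40 and 6.70 FPKM in OEx mice and 1.75, 2.22 and 1.95 FPKM in Ctrl mice, for a log2 fold change of 1.46. Trmt10c, a subunit of mitochondrial RNase P, rose by 1.05, and Mterf3 and Lrpprc rose by 0.86 each. Hsd17b10, another subunit of the same RNase P, was at 45.8 ± 2.70 (SD, n = 3) FPKM in OEx mice and 92.3 ± 1.75 FPKM in Ctrl mice, and so fell by 0.996 on the log2 scale. The subunits of RNase P thus differed in direction, and the nuclease subunit itself, listed as 1110008L16Rik, had a log2 fold change of -0.17 and did not pass (limma FDR 0.408). Rexo2, an oligoribonuclease, fell by 0.91, Ptcd2 by 0.67 and Mterf4 by 0.60.

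Among textbook targets of NRF1, GABPA and ERRalpha, more genes passed lower than higher on the deposited scale. Of 10, 8 were tested, 5 passed lower and 1 higher, 4 were called lower, and the median log2 fold change was -0.97. Cox4i1, a subunit of cytochrome oxidase, was at 248, 239 and 245 FPKM in OEx mice and 688, 678 and 797 FPKM in Ctrl mice, for a log2 fold change of -1.55. Cox5b fell by 1.31, Cycs (cytochrome c) by 1.20 and Tomm20, a receptor of protein import, by 1.01. Idh3a, a subunit of isocitrate dehydrogenase, passed higher at 0.35. On this scale Cox4i1, Cox5b, Cycs, Tomm20 and Esrra were lower while Gabpa and Tfam were higher in the same mice. No test of a link between them was made.

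On the deposited scale, the transcripts of mtDNA itself did not follow the regulators in 1 direction. Of 13 protein genes, all tested, 1 passed higher and 3 lower, and the median log2 fold change was -0.03. mt-Co1, a core subunit of cytochrome oxidase, was at 3377, 3131 and 4024 FPKM in OEx mice and 3254, 3250 and 4277 FPKM in Ctrl mice. The groups overlapped and the highest value of each was in replicate 3. The 3 that passed lower were mt-Nd3 at -1.21, mt-Co3 at -0.75 and mt-Nd1 at -0.46, all subunits of the respiratory chain. mt-Nd4l, which overlaps mt-Nd4, passed higher at 0.64 although its groups overlapped. In OEx mice mt-Nd3, mt-Co3 and mt-Nd4l averaged 15.5, 24.1 and 11.3 FPKM, against 1506 FPKM for mt-Nd1. In Ctrl mice the same genes averaged 38.3, 41.7 and 6.70 FPKM, against 2075 FPKM for mt-Nd1. The mt-Nd4l values rested on 22 to 77 reads per mouse. Why mt-Nd3, mt-Co3 and mt-Nd4l lay so far below mt-Nd1 was not tested. Both ribosomal RNA genes were called lower on the deposited scale, mt-Rnr1 with a log2 fold change of -1.38 and mt-Rnr2 with -1.61. mt-Rnr2 was at 55.3, 56.0 and 49.8 FPKM in OEx mice and 135, 129 and 262 FPKM in Ctrl mice. Ctrl replicate 3 was the highest, the groups were apart, and the part of the library preparation in these ribosomal RNA levels was not tested. mt-Co1 was named after its values were seen.

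**Figure D3:**
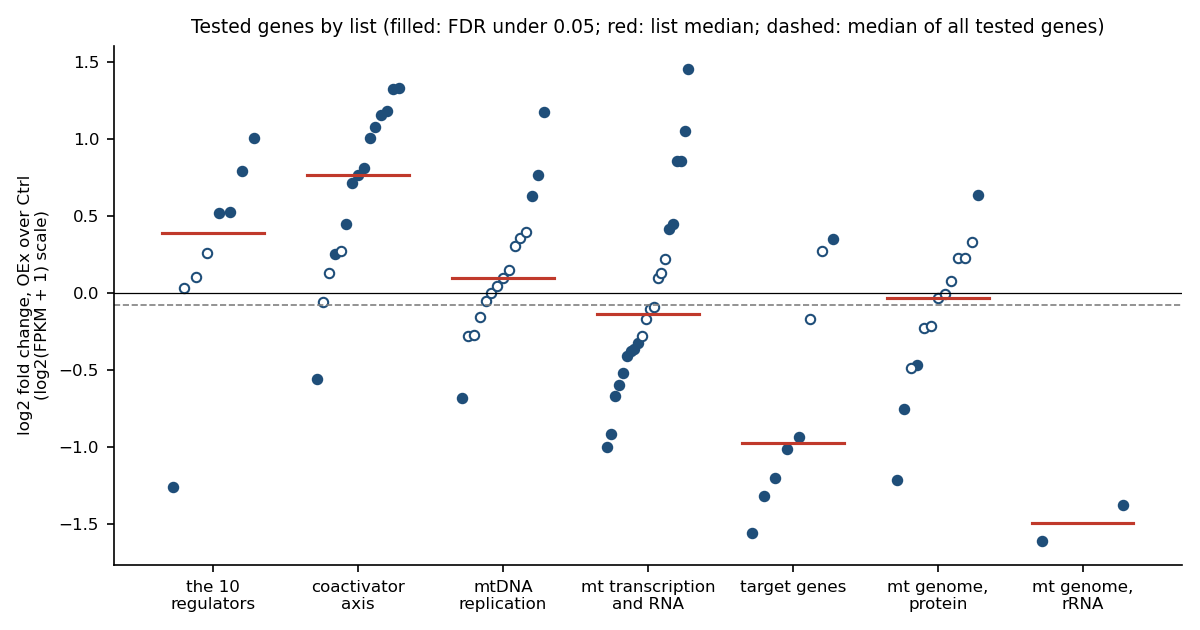
Log2 fold change of OEx over Ctrl mice (vertical axis, log2(FPKM + 1) scale) for each tested gene of 7 lists. Filled points passed an FDR of 0.05, red lines are list medians and the dashed line is the median of all tested genes at -0.08. The coactivator axis centred at 0.77 and the target genes at -0.97.

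Several cell type markers moved with these results. Of 8 luminal markers, 6 passed lower and 1 higher, with a sum of 3160 to 6257 FPKM in OEx mice and 16940 to 20714 FPKM in Ctrl mice, most of it Pbsn. Krt8, a defining keratin of this epithelium, was among those that passed lower, at 309 FPKM in OEx mice and 416 FPKM in Ctrl mice (log2 fold change -0.43, FDR 0.00628 by limma). Epcam was at 371 and 268 FPKM and did not pass (FDR 0.117). All 3 basal markers passed lower, with a sum of 3.72 to 5.32 FPKM in OEx mice and 99.4 to 122 FPKM in Ctrl mice. All 5 smooth muscle markers passed lower, with sums of 418 to 503 FPKM and 1246 to 2658 FPKM. Of 4 urothelial markers, 3 passed higher and 1 lower, with sums of 326 to 552 FPKM and 150 to 201 FPKM. Of 3 endothelial markers, 2 passed lower, with sums of 4.99 to 6.05 FPKM and 10.8 to 14.6 FPKM. Of 5 adipocyte markers, 1 was tested and passed lower, with sums of 0.357 to 0.580 FPKM and 1.65 to 5.24 FPKM. No fibroblast marker passed. Of 4 leukocyte markers, Cd68 was tested and did not pass, with sums of 3.11 to 13.03 FPKM in OEx mice and 3.39 to 7.81 FPKM in Ctrl mice. Ptprc, the pan-leukocyte marker, was below the filter at 1.28 FPKM in OEx mice and 0.130 FPKM in Ctrl mice, without overlap, and passed higher in the fit without a filter (FDR 0.0355) and with limma-voom (FDR 0.0317). The part of these cell types in the levels of the regulators was not tested.

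The scaling between mice bears on every value above. The deposited values imply library sizes of 1.22 to 1.35 times the recovered reads for OEx mice, but of 0.726 to 0.815 times for Ctrl mice. With FPKM scaled to equal totals the median log2 fold change of all tested genes was 0.65, with the 20 most abundant rows left out of the totals 0.45, and with upper-quartile scaling 0.15. Calls over all genes were 1653 higher and 2021 lower as deposited, 4458 and 504 with equal totals, 3477 and 717 without the 20 rows, and 2341 and 1326 with upper quartiles. Of all 12833 tested genes, 7578 passed higher and 1464 lower with equal totals. Without the 20 rows 6506 passed higher and 2137 lower, and with upper quartiles 5078 and 3611. Esrra kept a negative log2 fold change under these scalings, at -0.38, -0.62 and -0.99, each passing an FDR of 0.05 and none past 2-fold. Gabpa was at 1.74, 1.54 and 1.24 and rose under each of the 3, as did Tfam, Tfb2m and Polg. The lowest of the 3 values of Tfam was 0.77 and that of Tfb2m 1.03, both with upper quartiles. Polrmt passed higher under all 3 at 1.04, 0.83 and 0.50, and so did Nrf1 at 0.75, 0.57 and 0.31. Pprc1 passed with equal totals at 0.81 and without the 20 rows at 0.60. The target genes split into 3 higher and 3 lower with equal totals, and the 13 mtDNA protein genes into 10 higher and 0 lower. The transcription and RNA processing genes went to 15 higher and 0 lower with equal totals, 10 and 2 without the 20 rows and 9 and 5 with upper quartiles. Of the replication genes, 14 passed higher and 0 lower with equal totals, as many as of the coactivator axis. Nrf1, Polrmt and Pprc1 were above 0 under all 4 scalings, and whether they passed depended on the scaling. The split of the target, replication, transcription and mtDNA lists into higher and lower genes is therefore a statement about the deposited scale.

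**Figure D4:**
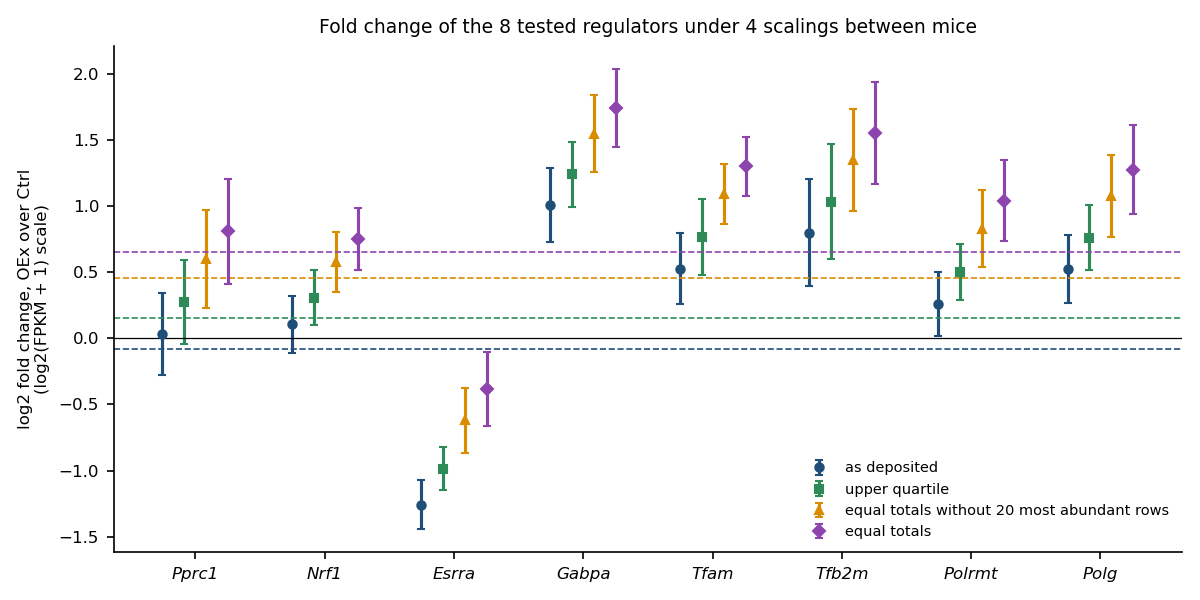
Log2 fold change of OEx over Ctrl mice (vertical axis, log2(FPKM + 1) scale) for the 8 tested regulators under 4 scalings between mice, with 95% intervals. Dashed lines in the same colours are the median of all tested genes under each scaling. Esrra lay below 0 and Gabpa, Tfb2m, Tfam and Polg above 0 under all 4.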

How the data were processed

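Total RNA of the whole AP of 6 mice was sequenced, per the labels with a TruSeq RNA kit on an Illumina HiSeq system. The authors deposited 1 FPKM table per mouse by gene symbol. The submitters' processing notes name CASAVA, HISAT2 2.0.5, featureCounts 1.5.0-p3 and StringTie 1.3.3b, and the genome build is not given in the sources used here. Rows were matched by symbol to GENCODE M21 of GRCm38 (53636 of 55076 rows), which gave positions and exon lengths. Reads were recovered from FPKM and exon length with a tolerance of 0.05 reads, and 96.9% to 97.5% of values under 1000 reads came out whole. For Esrra and Pprc1 the exon length was found by search within 30% of the annotated one. The 95% intervals of fold changes come from the limma fits and rest on the spread between mice. A floor of 3 reads corresponds to a CPM of 0.131 to 0.240 of that library size and covers counting error only.

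Groups were compared on log2(FPKM + 1) with limma 3.58.1 (R 4.3.3, eBayes with trend, group as the only term). Called genes had an FDR under 0.05 and a log2 fold change above 1 or below -1. Alternatives were a pseudocount of 0.1, no filter, 3 other scalings, other eBayes settings, a replicate block and each mouse left out. Averaging replicates 1 and 2, and limma-voom on recovered reads with a mean of at least 10 reads, were added after the data were seen. On simulated data with the same group sizes and library sizes, the fit called 88.4% of 190 changed genes with their true sign, and 0 of 11930 others. The simulated mice were independent, few genes changed, and no scaling offset between groups was put in. These counts therefore check the code and do not measure the error rate in the real data.

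The members and lists were chosen with earlier results of these data known. Named genes are all members, Notch1, up to 4 genes per list and direction with the largest log2 fold change among those that passed, the 3 genes nearest to Esrra, and markers that moved. Any other gene (Twnk, Fanci, Epcam, Ucp1, Myh4, Ptprc and 1110008L16Rik among them) was picked with its values in view. The listed symbol 1110008L16Rik was matched to Prorp by a RefSeq synonym. Python 3.11.15 with pandas 2.3.3, numpy 2.4.6 and matplotlib 3.10.9 drew the figures.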

Additional observations from a re-analysis of the deposited data

How the results depend on the processing

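Esrra stayed negative (-1.31 to -0.38) and Gabpa, Tfb2m and Polg positive, all with an FDR under 0.05, in each of 16 alternatives, and Tfam no longer passed in 1. Without a filter, with other eBayes settings and with the replicate block, only the FDR of tested members could differ from the main fit. Of the single-gene values, 118 stayed the same, 9 newly passed, 1 no longer passed, 2 moved and 2 turned. For tested members, the same means that direction and side of the threshold were kept. Ppargc1a and Ppargc1b were not in the main test, so for them it means a shift under 1 SD. Both moved with limma-voom, and without a filter their fold changes are the same by construction. The 2 that turned were Pprc1, at -0.038 without OEx replicate 2 and -0.046 without Ctrl replicate 3, within a range of -0.046 to 0.13 over the mice left out, none passing. With equal totals 5 members were called and 8 passed, and without the 20 most abundant rows 4 and 8. Of all 12833 tested genes, 7578 passed higher and 1464 lower with equal totals, and 6506 and 2137 without the 20 rows. Leaving out 1 mouse, 1 to 2 members were called and 5 to 6 passed. Of all 12833 tested genes, 3443 to 3955 then passed higher and 4123 to 4953 lower. Those called numbered 1614 to 1726 higher and 1987 to 2043 lower. The call lost without OEx replicate 3 or without Ctrl replicate 3 was Gabpa.

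Replication genes that passed numbered 4 as deposited, 14 with equal totals, 13 without the 20 rows, 9 with upper quartiles and 4 to 6 with 1 mouse left out. Transcription and RNA genes numbered 15 (6 higher, 9 lower), then 15 (15 higher, 0 lower) with equal totals, 12 (10 and 2) without the 20 rows, 14 (9 and 5) with upper quartiles, 9 with replicates 1 and 2 averaged and 10 to 16 with 1 mouse left out. mtDNA protein genes numbered 4, then 2 without a filter, 10 with either total and 2 to 5 with 1 mouse left out, with 2 without OEx replicate 1. Without a filter 5880 of 28612 tested genes passed higher and 4887 lower. Of all 12833 tested genes, 3941 passed higher and 4680 lower as deposited, and 7578 and 1464 with equal totals. With replicates 1 and 2 averaged 2942 passed higher and 3510 lower, and with 1 mouse left out 3443 to 3955 and 4123 to 4953. Without the 20 rows 6506 passed higher and 2137 lower, and with upper quartiles 5078 and 3611. Averaging, the lack of a filter and leaving out a mouse change the number of samples or of genes tested, and the cause of the other changes was not tested.

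With the replicate number as a block, 2 members were called and 5 passed, as without it. Of the lists, 11 genes of the coactivator axis, 4 of replication, 11 of transcription and RNA processing, 5 of the targets and 3 of mtDNA passed. In that fit 3441 of all 12833 tested genes passed higher and 4123 lower, and 1611 were called higher and 1986 lower. For same-numbered mice the mean correlation of their deviations across genes was -0.230 (-0.307 to -0.189), against 0.0951 for other pairs. Among differently numbered pairs, OEx replicate 1 with Ctrl replicate 2 was at -0.229 and OEx replicate 2 with Ctrl replicate 1 at -0.200. Pairs of replicate 3 with a differently numbered mouse were at 0.233 to 0.271. In each group replicates 1 and 2 were close and replicate 3 was apart, so the correlations follow that split. The check therefore cannot decide whether the numbers pair the samples.

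Ppargc1a and Ppargc1b were at most 246 reads in any mouse, and their log2 fold changes were 1.89 and 0.61 on recovered reads against 0.81 and 0.18 on log2(FPKM + 1).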
